A study of Mus musculus with 19 samples.

Results

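Laminins are the cross-shaped trimers, each of 1 alpha, 1 beta and 1 gamma chain, around which a basement membrane is built. Nidogens and the heparan sulfate proteoglycans perlecan (Hspg2) and agrin (Agrn) tie the laminin sheet to the type IV collagen network. In peripheral nerve every Schwann cell and axon unit, every perineurial cell and every capillary lies on such a sheet, and laminin binding to integrins and dystroglycan is needed for Schwann cells to sort and myelinate axons. Thickening of the basement membrane around nerve capillaries and Schwann cells is a known feature of diabetic neuropathy. The 10 genes described here, a list chosen by name, encode 3 alpha chains (Lama2, Lama4, Lama5), 2 beta chains (Lamb1, Lamb2), the gamma chain shared by most nerve laminins (Lamc1), both nidogens (Nid1, Nid2), perlecan and agrin. All 10 were found among the 18193 genes with a named probe set, and all 10 were among the 13460 whose mean level passed the filter on low values.

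RNA came from sciatic nerve of DBA/2J mice, and each array held 1 mouse. The groups compared were 4 control mice given vehicle (CV), 5 mice made diabetic with streptozotocin, a toxin of pancreatic beta cells, and given vehicle (DV), 5 control mice given rosiglitazone (CR) and 5 streptozotocin-diabetic mice given rosiglitazone (DR). Rosiglitazone is an activator of the nuclear receptor PPAR gamma used as an insulin sensitizer. The study ran 5 mice per group and left out 1 control vehicle array that failed quality control. The title names reduced neuropathy under rosiglitazone as the question. Ages, doses and the length of diabetes were not given in the sources used here. Streptozotocin models insulin-deficient diabetes. Arrays carry the number from their label, CV702 to DR720, and values are listed in that order. Values are log2 of the deposited normalized intensity, so a difference of 1 is a factor of 2 in intensity, and they rank samples within a probe set but not one gene against another. In RNA from a nerve, fewer cells of a type and less RNA per cell cannot be told apart.

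Several arrays stood apart. The difference between the Gapdh control probe sets at the 3′ and 5′ ends of the transcript, which grows with RNA degradation, was 3.71 on DV706 and 4.38 on DV707, 1.75 on DR716 and 1.00 to 1.37 on the other arrays. A list of 11 measured genes of sensory neuron cell bodies was summarised as the mean log2 level relative to the average array. It stood at -3.58 to -2.89 on DV706, DV707, DV709, CR715 and DR716 and at -0.05 to 2.12 on the other 14 arrays. Its member Isl1, a sensory neuron transcription factor, stood at 3.83 to 6.41 on those 5 arrays and at 9.47 to 11.35 on the other 14. Leaving out the 5 thus keeps only samples with high levels of these cell body transcripts. Neither set is taken here as the typical nerve sample. Mean levels of 12 Schwann cell and myelin genes differed less between arrays, from -1.05 on CR715 to 0.40 on CV702, with all 12 above the filter. Endothelial genes (14 of 14 measured) spanned -0.43 to -0.13 in CV, -0.35 to 0.90 in DV, -0.31 to 0.32 in CR and -0.57 to 0.41 in DR, and were highest on DV706; von Willebrand factor, Vwf, ranged from 9.95 to 13.12. Skeletal muscle genes spanned -2.35 to 3.67, with Acta1 between 4.67 and 13.27, and adipocyte genes -4.22 to 2.99, with Adipoq between 5.48 and 13.80. By group, the sensory neuron list spanned 0.34 to 1.16 in CV, -3.55 to 2.12 in DV, -3.58 to 1.76 in CR and -3.50 to 1.83 in DR. The low arrays DV706, DV707 and DV709 are diabetic vehicle arrays, and no control vehicle array was low. The vehicle groups thus differed in this level too, and its part in their differences was not tested. Differences between the vehicle groups are also given without DV706 and DV707. Except for a gene's dimmer probe sets, they are also given without all 5 arrays with few sensory neuron transcripts.

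In diabetic mice on vehicle, 8 of the 10 genes had lower means than in control mice on vehicle and 2 had higher means, with a median difference of -0.17 on the log2 scale against 0.03 over all genes tested. Lamc1 showed the largest difference, -0.59, and perlecan the next among the lower ones, -0.34. None of the 10 passed an adjusted p of 0.05 in limma's moderated test, fitted across all genes with Benjamini-Hochberg adjustment. The same held for the array as a whole, where 0 of 13460 genes, or 0%, were called in this comparison and in each of the other 6. At an unadjusted p of 0.05, 2 of the 10 genes were lower and none higher, beside 18.1% of all genes in either direction (2439 of 13460). That share of members is close to the background. None of the 10 had groups that did not overlap, against 5.06% of all genes. Centring each array on its median raised the median difference of all genes to 0.12, and 7 of the 10 were then lower, because Nid1 changed side.

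**Figure D1:**
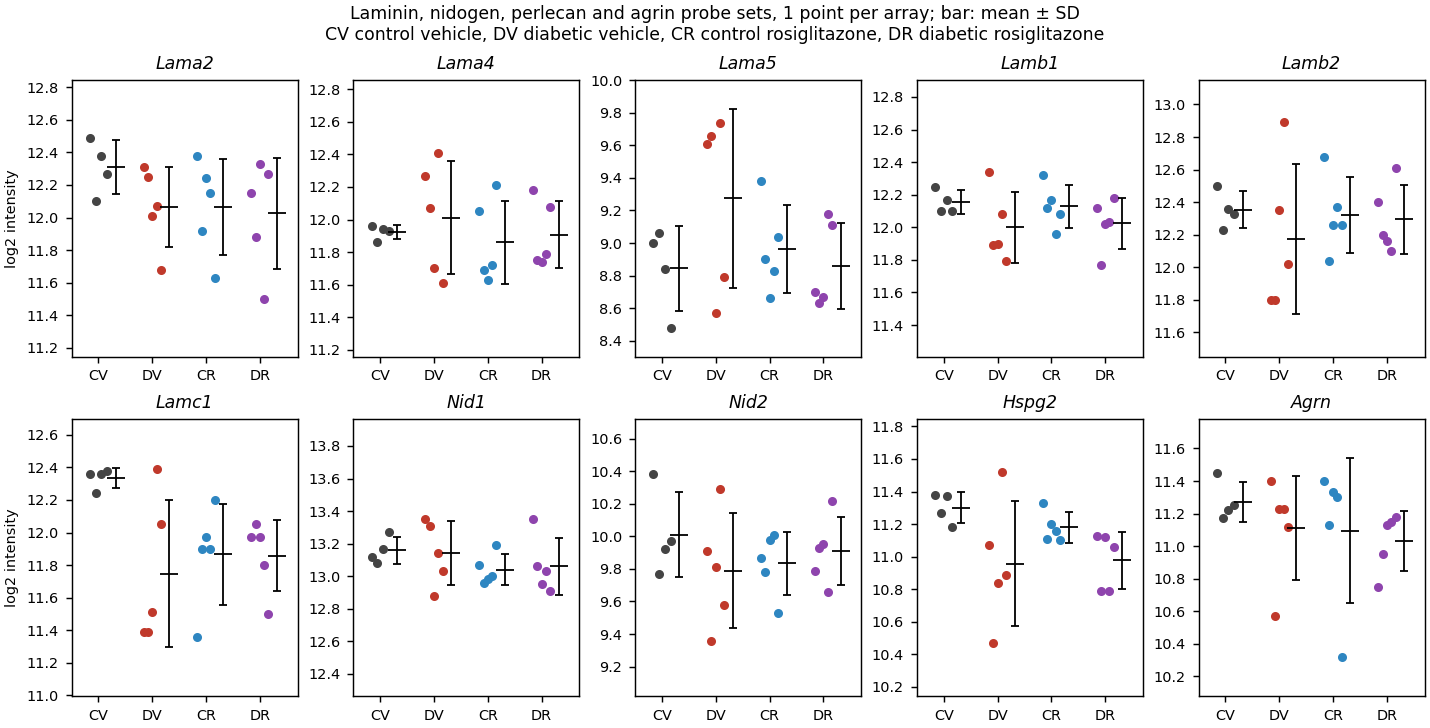
Log2 intensity (y axis) of each gene's probe set on every array, by group (x axis), with 1 point per array and a bar for the mean and SD. Each panel has its own level but the same span. The 4 control vehicle points for Lamc1 lie between 12.24 and 12.38, and all arrays of the rosiglitazone groups lie below them on this probe set.

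Lamc1 encodes laminin gamma 1, the gamma chain without which neither the endoneurial nor the vascular laminins assemble. Its log2 intensity in CV was 12.36, 12.24, 12.36 and 12.38, a mean of 12.33 ± 0.07 (SD, n = 4). In DV the values were 11.39, 11.39, 11.51, 12.39 and 12.05, a mean of 11.75 ± 0.45 (SD, n = 5). Of the 5 diabetic vehicle arrays, 4 lay below every control, and DV709 lay above every control. The difference of -0.59 (SE 0.20, 95% interval -1.01 to -0.16), 0.665 times the control intensity, had an adjusted p of 0.238. It was -0.50 without DV706 and -0.75 without DV709, and stayed between these values whichever single array was left out. Without both DV706 and DV707 it was -0.35 and no longer passed an unadjusted p of 0.05, and without the 5 arrays it was -0.55.

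The same gene was lower in the rosiglitazone groups than in CV. Lamc1 stood at 11.36, 11.90, 11.97, 11.90 and 12.20 in CR, a mean of 11.87 ± 0.31 (SD, n = 5), and at 11.97, 12.05, 11.97, 11.80 and 11.50 in DR, a mean of 11.86 ± 0.22 (SD, n = 5). None of these 10 arrays reached the lowest control vehicle array on this probe set. DR against CV was not among the comparisons, and no share of all genes was counted for it. Control rosiglitazone against control vehicle gave -0.47 (SE 0.20, adjusted p = 1.00), and these groups did not overlap, as was the case for 3.45% of all genes. The unadjusted p was above 0.05 without CV702, CV704, CV705 or CR711, and the difference was -0.34 without CR711. The order of the group means was CV, CR, DR and DV, and the last 3 lay within 1 SD of each other. The comparisons with CV share the 4 control vehicle arrays. The interaction, the diabetic effect under rosiglitazone minus that under vehicle, was 0.58 (SE 0.28, adjusted p = 0.748) for Lamc1, and 0.34 without DV706 and DV707. It passed an unadjusted p of 0.05, at 0.66 to 0.74, when DV709, DV710, CR715 or DR720 was left out. On the second Lamc1 probe set, 1423886_at, DR720 stood at 12.06, inside the control vehicle range of 11.82 to 12.19. DR and CV thus overlapped there.

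Perlecan (Hspg2), the large proteoglycan that binds laminin, nidogen and growth factors in basement membranes, stood at 11.38, 11.27, 11.37 and 11.18 in CV, a mean of 11.30 ± 0.10 (SD, n = 4). In DV it stood at 11.07, 10.47, 10.84, 11.52 and 10.89, a mean of 10.96 ± 0.38 (SD, n = 5). As for Lamc1, 4 of 5 diabetic arrays lay below every control and DV709 lay above them all. The difference was -0.34 (SE 0.15), with an adjusted p of 0.266. It ranged from -0.48 without DV709 to -0.22 without DV707, and was -0.21, past no threshold, without DV706 and DV707 and -0.43 without the 5 arrays. The unadjusted p was above 0.05 when any 1 of CV702, CV703, CV704, DV707, DV708, DV710, CR712, CR713 or CR714 was left out. Under rosiglitazone, Hspg2 stood at 11.33, 11.11, 11.20, 11.16 and 11.10 in control mice and at 11.13, 10.79, 11.12, 10.79 and 11.06 in diabetic mice. The means were 11.18 ± 0.09 and 10.98 ± 0.17 (SD, n = 5 each), the ranges overlapped, and the difference was -0.20 (SE 0.15, adjusted p = 1.00).

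Averaged over both treatments, Hspg2 differed by -0.27 (SE 0.11, adjusted p = 0.476) and Lamc1 by -0.30 (SE 0.14, adjusted p = 0.480) between diabetic and control mice. These were the 2 members at an unadjusted p of 0.05 in that comparison, beside 10.3% of all genes, and 0 passed the adjusted threshold. Lamc1 was at -0.18 and Hspg2 at -0.21 without DV706 and DV707. Leaving out 1 array brought the unadjusted p of Lamc1 above 0.05 for 13 of the 19 arrays. Over the 10 genes the median was -0.11, against 0.02 over all genes, with 8 lower and 2 higher. Because DV and CV enter this average too, it does not stand apart from the comparison under vehicle.

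Of the alpha chains, which decide which receptors a laminin binds, Lama5 was the one with the largest positive difference. Laminin alpha 5 belongs to vascular and perineurial basement membranes. Lama5 stood at 9.00, 9.06, 8.84 and 8.48 in CV and at 9.61, 9.66, 8.57, 9.74 and 8.79 in DV. DV706, DV707 and DV709 lay above all controls and the other diabetic vehicle arrays lay within their range. The means were 8.84 ± 0.26 (SD, n = 4) and 9.27 ± 0.55 (SD, n = 5), a difference of 0.43 (SE 0.24, adjusted p = 0.318). Those 3 arrays are also among the 5 low in sensory neuron transcripts, and on them the endothelial list stood at 0.90, 0.60 and 0.36; the part of either in the Lama5 values was not tested. The difference passed an unadjusted p of 0.05 without DV708, at 0.61, or without DV710, at 0.55. Without DV706 and DV707 the Lama5 difference was 0.19, and without the 5 arrays it was -0.16. In DR, Lama5 stood at 8.70, 8.63, 8.67, 9.18 and 9.11, so that diabetic mice on rosiglitazone differed from those on vehicle by -0.42 (SE 0.22, adjusted p = 0.498), and that difference was -0.18 without DV706 and DV707 and 0.21 without the 5 arrays. It passed an unadjusted p of 0.05 without DV708 (-0.59) or DV710 (-0.54).

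Lama2 encodes the alpha chain of the Schwann cell basement membrane, whose loss causes a congenital muscular dystrophy with a dysmyelinating neuropathy. Lama2 stood at 12.49, 12.10, 12.38 and 12.27 in CV and at 12.31, 12.25, 12.01, 12.07 and 11.68 in DV, and the ranges overlapped. The difference was -0.25 (SE 0.18, adjusted p = 0.451), -0.39 without DV706 and DV707 and -0.46 without the 5 arrays. Control mice on rosiglitazone differed from those on vehicle by -0.25 (SE 0.18) as well, with DR at a mean of 12.03 ± 0.34 (SD, n = 5).

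Lama4, an alpha chain of endothelial and endoneurial basement membranes, was tightly grouped in CV, from 11.86 to 11.96, and spread from 11.61 to 12.41 in DV. Its difference of 0.09 (SE 0.17, adjusted p = 0.773) was smaller than the SD of 0.35 among the diabetic vehicle arrays. It changed sign under several alternatives, including -0.02 without DV706 and DV707 and -0.27 without the 5 arrays.

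Of the beta chains, Lamb1 is common to most of the laminins of nerve, and Lamb2 replaces it in some vascular, synaptic and Schwann cell laminins. Lamb1 ranged from 12.10 to 12.25 in CV and from 11.79 to 12.34 in DV, a difference of -0.15 (SE 0.12, adjusted p = 0.454), -0.23 without DV706 and DV707 and -0.31 without the 5 arrays. Lamb2 stood at 11.80 on both DV706 and DV707, the lowest of all 19 arrays, and at 12.89 on DV709, the highest. Its difference of -0.18 (SE 0.19, adjusted p = 0.595) became 0.07 without DV706 and DV707 and -0.17 without the 5 arrays. Leaving out 1 array brought Lamb1 to an unadjusted p under 0.05 without DV706 (-0.24) and Lamb2 without DV709 (-0.36).

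Among the linkers, Nid1 differed by -0.02 (SE 0.11, adjusted p = 0.923) on its brightest probe set and Nid2 by -0.22 (SE 0.18, adjusted p = 0.480). Agrn, which also clusters acetylcholine receptors at the neuromuscular junction, differed by -0.16 (SE 0.20, adjusted p = 0.645). These differences were -0.15 for Nid1, -0.11 for Nid2 and -0.08 for Agrn without DV706 and DV707, and -0.21, -0.31 and -0.10 without the 5 arrays. Agrn values were 11.45, 11.17, 11.22 and 11.25 in CV and 11.40, 10.57, 11.23, 11.23 and 11.12 in DV, so that DV707 alone lay far below the controls. For these 3 genes the difference was smaller than the SD among the diabetic vehicle mice.

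Values in the control vehicle group were less spread than in each of the other groups for most of the 10 genes. The SD in DV was above that in CV for 10 of the 10 genes, which was also the case for 92.1% of all genes tested. Without DV706 and DV707 it was so for 9 of 10, against 77.5% of all genes. The SD in CR was above that in CV for 8 of 10 genes (81.5% of all genes), and the SD in DR for 9 of 10 (82.1%). DV709 was the highest of all 19 arrays for 5 members (Lama4, Lama5, Lamb2, Lamc1 and Hspg2), whereas 8.57% of all genes peaked there. DV707 was the lowest for Lamb2, Nid2 and Hspg2, as for 13.7% of all genes. CV702 was the highest for Lama2, Nid2 and Agrn, whereas 2.80% of all genes peaked there. On DV709 the perineurial list of 8 genes stood at 0.94, against -0.31 to 0.15 on the other 18 arrays. The adipocyte (-4.22), fibroblast (-0.57) and macrophage (-0.74) lists were at their lowest there. The part of these cell types in the values of DV709 was not tested. Around their group means, the 10 genes had an SD between 0.15 (Nid1) and 0.36 (Lama5), with a median over all genes of 0.32.

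**Figure D2:**
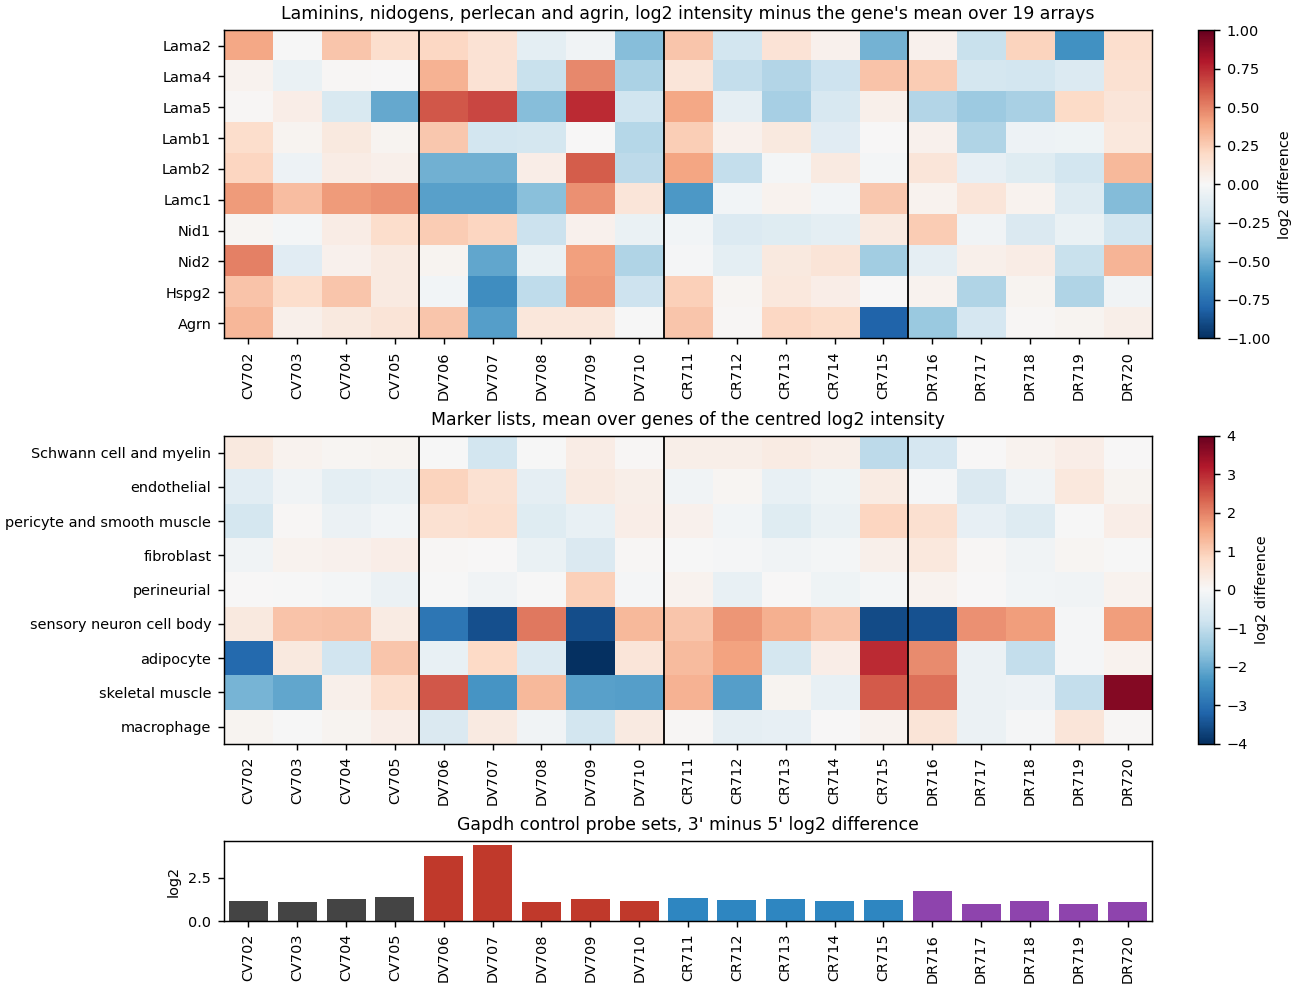
Upper panel: log2 intensity of each of the 10 genes on each array, minus the gene's mean over 19 arrays. Middle panel: the same for marker lists, averaged over their genes; lower panel: Gapdh log2 difference between the 3′ and 5′ control probe sets. DV709 is dark red for Lama5 and Lamb2, and the 5 arrays with sensory neuron levels of -2.89 or lower stand out in blue.

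A gene's other probe sets gave different answers. Of the 10 genes, 6 had several probe sets above the filter, 14 in all, and 11 of the 14 were lower in DV than in CV. A limma fit of all 27022 probe sets above the filter called 0% of them at an adjusted p of 0.05 and 20.7% at an unadjusted p of 0.05. Nid1 showed the widest disagreement. Its brightest probe set, 1416808_at, differed by -0.02, whereas 1448469_at differed by -1.55 (SE 0.31, adjusted p = 0.193). On 1448469_at the values were 9.98, 10.29, 10.61 and 10.86 in CV and 8.06, 8.50, 8.53, 9.49 and 9.86 in DV, and the groups did not overlap. The same held for 5.06% of all genes on their brightest probe set, and the share over all probe sets was not counted. Without DV706 and DV707 the difference on 1448469_at was -1.14 (SE 0.30).

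Diabetic mice on rosiglitazone stood at 9.51, 10.41, 10.37, 10.02 and 10.16 on 1448469_at, 1.21 above the diabetic vehicle mean (SE 0.29, adjusted p = 0.468), and the 2 groups overlapped. DV706 and DV707, at 8.06 and 8.50, were the lowest diabetic vehicle arrays on this probe set. The rosiglitazone difference is not given here without them. In that comparison 10.3% of all probe sets passed an unadjusted p of 0.05 and 0% an adjusted one. On the brightest Nid1 probe set the same groups had means of 13.06 ± 0.17 and 13.14 ± 0.20 (SD, n = 5 each). The third Nid1 probe set, 1441519_at, was between the others under vehicle, with -0.76 (SE 0.31).

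The laminin chains showed the same kind of gap. Lama4 differed by 0.09 on 1424807_at and by -0.98 (SE 0.30) on 1424808_at. Lamb1 differed by -0.15 on 1424114_s_at, -0.31 (SE 0.12) on 1424113_at and -1.02 (SE 0.32) on 1451241_at. For Lamc1 the second probe set, 1423886_at, gave -0.96 (SE 0.33), and for Hspg2 1418669_at gave -0.50 (SE 0.21). Lama5 was the exception, with 0.43 and 0.41 on its 2 probe sets. None passed the adjusted threshold. Without DV706 and DV707 the differences on the dimmer probe sets were -0.48 for Lama4, -0.26 and -0.49 for Lamb1, -0.41 for Lamc1 and -0.32 for Hspg2.

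**Figure D3:**
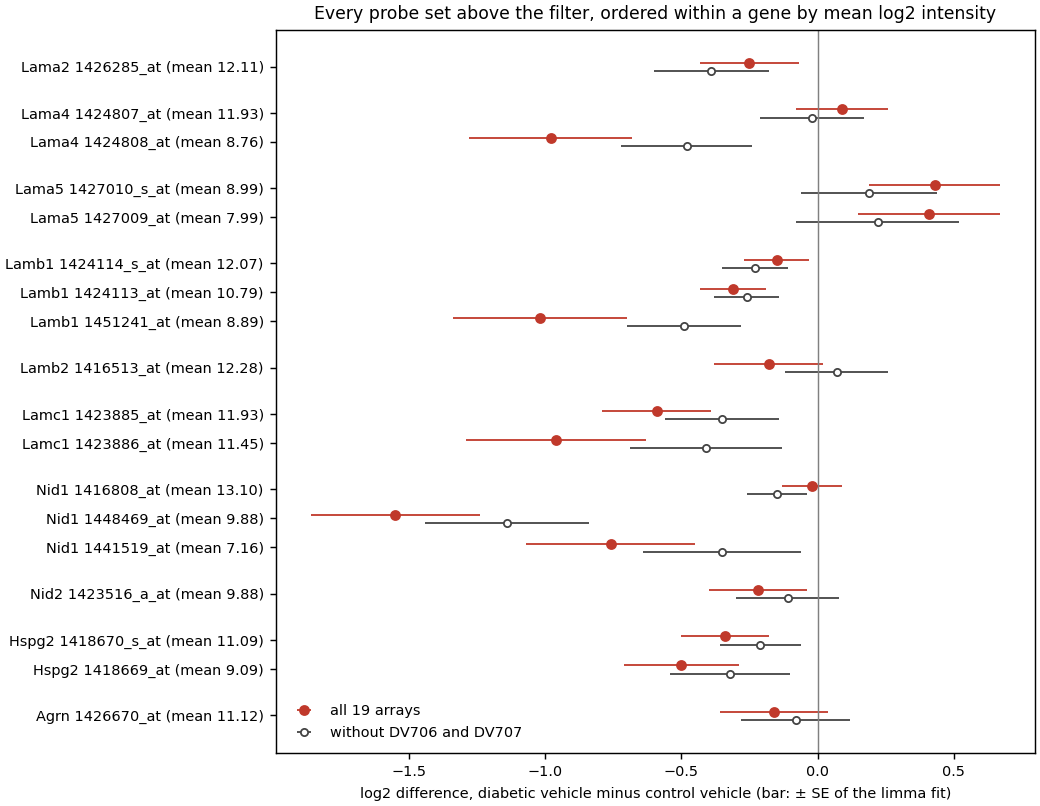
Log2 difference between diabetic and control mice on vehicle (x axis, bars: SE) for each probe set above the filter, grouped by gene, over all 19 arrays (red) and without DV706 and DV707 (open). Nid1 spans -1.55 to -0.02 over its 3 probe sets, and the open points lie nearer to 0 for most dimmer probe sets.

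For several genes the gap between the brightest and a dimmer probe set was widest on DV706 and DV707, where the Gapdh difference was also largest. For Lama4 the gap was 4.90 on DV706 and 4.48 on DV707, against 2.58 to 3.84 on the other 17 arrays. For Nid1 and 1448469_at it was 5.28 and 4.81, against 2.41 to 4.34, with the 4.34 on DV708, whose Gapdh difference was in the low range. For Lamb1 and 1451241_at it was 4.21 and 4.90, against 2.65 to 3.76, and for Lamc1 1.29 and 1.14, against -0.56 to 1.09. The gaps of Lama5 (1.14 and 0.99, against 0.74 to 1.31) and Hspg2 (2.05 and 2.15, against 1.64 to 2.29) on these arrays lay within those of the others. DR716, with the third highest Gapdh difference, had the highest gap of the 17 for Lama4, Lama5, Lamb1 and Lamc1. Positions of the probe sets along the transcripts were not analysed here, and the part of RNA quality in the probe set differences was not tested.

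**Figure D4:**
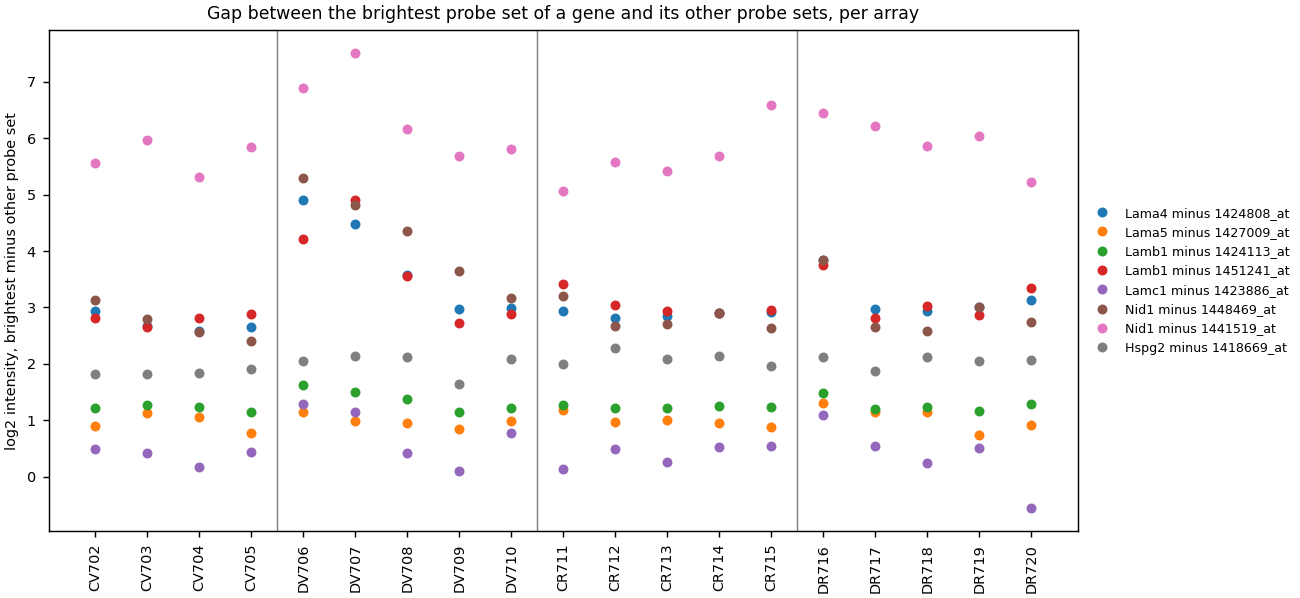
Log2 intensity of a gene's brightest probe set minus that of another probe set of the same gene (y axis) on each array (x axis, groups split by lines). The gaps of Lama4, Lamb1 (1451241_at) and Nid1 are highest on DV706 and DV707, and those of Lama5 and Hspg2 are not.

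Rosiglitazone in diabetic mice gave 5 genes higher and 5 lower, with a median of -0.01 against -0.02 over all genes. None of the 10 reached an adjusted p of 0.05 in limma (0% of all genes) or an unadjusted p of 0.05 (9.70% of all genes). Lamc1 was 0.11 (SE 0.19) and Nid2 0.12 (SE 0.16) above the diabetic vehicle mean. These were -0.12 and 0.02 without DV706 and DV707, and 0.05 and 0.24 without the 5 arrays. The even split depended on the arrays and probe sets used. Without the 5 arrays, 9 genes were higher and 1 lower, with a median of 0.11 against -0.01 over all genes. Only DV708 and DV710 then stood for diabetic vehicle. On the second probe set, which 6 members have, 4 were higher and 2 lower, with a median of 0.30. In control mice, with all arrays, rosiglitazone gave 9 lower and 1 higher, Lama5 at 0.12 (SE 0.24), with a median of -0.12 against 0.00. Lamc1 alone passed an unadjusted p of 0.05, beside 2.83% of all genes, and no member passed the adjusted one.

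Between diabetic and control mice both on rosiglitazone, 3 genes were higher and 7 lower, with a median of -0.03 and a range from -0.20 (Hspg2) to 0.08 (Nid2). No member passed an unadjusted p of 0.05, where 1.29% of all genes did. The interaction was positive for 8 genes and negative for 2, Lama5 at -0.54 (SE 0.33, adjusted p = 0.748) among them, which was -0.30 without DV706 and DV707, and -0.72 and past an unadjusted p of 0.05 without DV708. Over all arrays no member passed an unadjusted p of 0.05 for the interaction, against 4.77% of all genes. Rosiglitazone averaged over both states gave 2 higher and 8 lower, from -0.18 (Lamc1, SE 0.14) to 0.05 (Lamb2, SE 0.13). Lamc1 was at -0.30 without DV706 and DV707, with an unadjusted p under 0.05. With all arrays none passed an unadjusted p of 0.05, where 5.24% of all genes did.

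The remaining genes of the laminin network gave a few larger values at an unadjusted p of 0.05. Among 4 measured further laminin chains of 5 listed, 2 were higher and 2 lower in DV than in CV, and 1 passed in each direction, beside 18.1% of all genes. Of the 4, 1 was at that p without DV706 and DV707, where 4.49% of all genes were. Without the 5 arrays none was, where 11.5% of all genes were. Lama3, an epithelial alpha chain, stood at 6.01 ± 0.26 (SD, n = 4) in CV and 7.56 ± 1.08 (SD, n = 5) in DV, a difference of 1.56 (SE 0.40, adjusted p = 0.238). Its control vehicle arrays, at 5.67 to 6.30, lay just above the filter level of 5.54. That Lama3 difference was 1.08 without DV706 and DV707 and 0.41 without the 5 arrays. In diabetic mice on rosiglitazone Lama3 lay 1.14 below the diabetic vehicle mean on the log2 scale, at 6.43 ± 0.41 (SD, n = 5), a difference of -0.66 without DV706 and DV707 and of -0.07 without the 5 arrays. Lamc3, a gamma chain not needed for the main nerve laminins, differed by -1.35 (SE 0.59, adjusted p = 0.255), -0.94 without DV706 and DV707 and -0.53 without the 5 arrays.

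All 8 collagens of basement membranes were measured, with 4 higher and 4 lower, a median of -0.06 and 1 at an unadjusted p of 0.05, beside 18.1% of all genes. Without DV706 and DV707, 6 of 8 were lower with a median of -0.21 and none at that p, where 4.49% of all genes were. Without the 5 arrays the median was -0.43 with 2 at that p, where 11.5% of all genes were. With all arrays the collagen at that p was Col4a5, a chain of the type IV network, at -1.04 (SE 0.38, adjusted p = 0.238), -0.95 without DV706 and DV707 and -0.80 without the 5 arrays. The 12 other basement membrane proteins had a median of -0.04 with none at that p under vehicle, 1 without DV706 and DV707 (median -0.09) and 4 without the 5 arrays (median -0.23). The shares of all genes at that p were 18.1%, 4.49% and 11.5%, in the same order. In control mice on rosiglitazone Smoc1, a calcium-binding matrix protein, was higher by 0.68 (SE 0.27, adjusted p = 1.00), and by 0.46 without the 5 arrays.

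Of the laminin receptors and their linker complex, 23 of 26 were measured, and 16 were lower and 7 higher in DV than in CV, with a median of -0.09. At an unadjusted p of 0.05, 4 were lower and none higher, while 7.39% of all genes were lower and 10.7% higher at that p. Of the 23, 1 was at that p without DV706 and DV707, with a median of -0.03, where 4.49% of all genes were. Without the 5 arrays 4 were, with a median of -0.23, where 11.5% of all genes were. Sgce, the epsilon sarcoglycan of the dystroglycan complex in Schwann cells, ranged from 11.36 to 11.49 in CV and from 10.70 to 11.25 in DV, without overlap. These groups did not overlap for 5.06% of all genes. The Sgce difference was -0.43 (SE 0.10, adjusted p = 0.238), -0.32 without DV706 and DV707 and -0.38 without the 5 arrays. Itgb1, the beta subunit of the main laminin-binding integrins, differed by -0.50 (SE 0.21, adjusted p = 0.247), -0.37 without DV706 and DV707 and -0.44 without the 5 arrays. Sgcd, the delta sarcoglycan, differed by -1.09 (SE 0.45, adjusted p = 0.247), by -0.42 without DV706 and DV707 and by -0.85 without the 5 arrays.

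In diabetic mice on rosiglitazone Sgcd lay 1.11 above the diabetic vehicle mean (SE 0.42, adjusted p = 0.497), 0.44 above it without DV706 and DV707 and 1.16 above it without the 5 arrays. Sgcb, the beta sarcoglycan, differed by -0.34 (SE 0.14), by -0.19 without DV706 and DV707 and by -0.04 without the 5 arrays. Under rosiglitazone, Sntb1, a syntrophin that docks on dystrophin, differed by -0.30 (SE 0.13, adjusted p = 1.00) between diabetic and control mice. Averaged over treatments, the diabetic minus control difference was -0.26 (SE 0.07) for Sgce and -0.25 (SE 0.10) for Sntb1. The interaction of Sgce was 0.34 (SE 0.14, adjusted p = 0.748). The enzymes that put the laminin-binding sugar on dystroglycan, 8 of 12 measured, had a median of -0.02 in DV minus CV, with 4 higher and 4 lower. None was at an unadjusted p of 0.05, with or without these arrays. At that p were 18.1% of all genes, 4.49% without DV706 and DV707 and 11.5% without the 5 arrays.

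**Figure D5:**
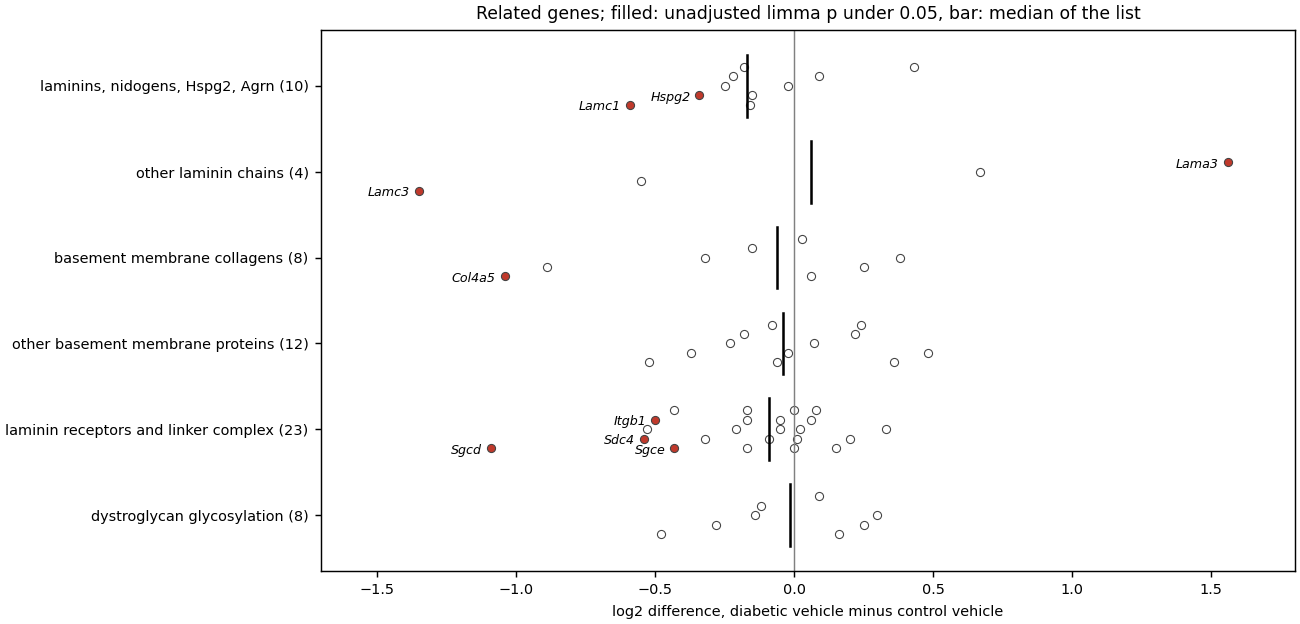
Log2 difference between diabetic and control mice on vehicle (x axis) for each measured gene, by list (y axis, number measured in brackets), with a bar for the list's median. Filled points have an unadjusted limma p under 0.05, from Lamc3 at -1.35 to Lama3 at 1.56, and no point passed the adjusted threshold.

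The genes whose levels moved most like each of the 10 were found by Pearson correlation over the 19 arrays after the group means were subtracted. These values are descriptions over arrays that share the quality and tissue differences given above. Lamc1 went with Smad7 (r = 0.94, rho = 0.87), an inhibitor of TGF-beta signalling, and with Rdx (r = 0.93), which links the cell cortex to the membrane. Without the 2 arrays farthest from the median, DV709 and CR711, these were 0.90 and 0.88. Lama2 went with Tgfbi (r = 0.93), a TGF-beta-induced matrix protein, and with Aldh1a1 (r = 0.90). Lama4 went with the mechanosensitive channel gene Piezo1 (r = 0.93) and with Rgs16 (r = 0.92), Lama5 with Gab2 (r = 0.91) and Afap1l1 (r = 0.87), Lamb1 with Wdr91 (r = 0.89) and Srpk3 (r = 0.87), and Lamb2 with Vill (r = 0.92) and Sh3d21 (r = 0.90). Nid1 went with Tlr4 (r = 0.94) and Rhoa (r = 0.94), Nid2 with Arg1 (r = 0.91) and Tec (r = 0.90), and Agrn with Slco1a4 (r = 0.97) and Fryl (r = 0.95). For Hspg2 the likeness to Gli1 (r = 0.89) and Zfp160 (r = 0.87) rested on DV709 and DV707, without which it was 0.54 and 0.60. Over the 14 arrays with sensory neuron transcripts, the Nid1 values with Rhoa gave 0.57 and those with Tlr4 0.82, whereas Lamc1 with Smad7 gave 0.97.

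When the 5 arrays with few sensory neuron transcripts were left out, which left 2 diabetic vehicle arrays, all 10 genes had lower means in DV than in CV, with a median of -0.29 against 0.01 over all genes. At an unadjusted p of 0.05 there were then 4 (Hspg2 at -0.43, Lamc1 at -0.55, Lamb1 at -0.31 and Nid1 at -0.21), beside 11.5% of all genes, and none passed the adjusted threshold. The pair of diabetic vehicle arrays that remained, DV708 and DV710, stood at 10.84 and 10.89 for Hspg2 and at 11.51 and 12.05 for Lamc1, below all 4 controls in both genes. DV709, which lay above all 4 controls in both genes, was among the arrays left out. The share of all genes for which such a pair lies apart from the 4 controls was not counted.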

How the data were processed

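The deposited values are linear Affymetrix intensities, 1 column per array, summarised with RMA per the submitters' processing notes; the array's name, further RMA settings and a genome build were not given in the sources used here. RNA was amplified and biotin-labelled with a NuGen Ovation kit, per the labels' protocols. Intensities ran from 3.76 to 30602, with array medians between 83.3 and 101.7. Log2 was taken with no offset. Of 45101 probe sets, 64 are controls, 34945 have 1 gene symbol in the platform annotation, 932 have several and 9160 are unnamed here; 34741 of the one-symbol probe sets matched the reference gene table and 0 symbols changed. Each gene was read from its one-symbol probe set with the highest mean. Genes above the 40th percentile of mean log2 intensity (5.54) were tested with limma 3.58.1 in R 4.3.3: a model with 4 group means, 7 comparisons, empirical Bayes moderation and Benjamini-Hochberg adjustment over 13460 genes, threshold 0.05. The fit was also run on simulated arrays with independent values and, for each gene, the same spread in every group. The real arrays differ from this in spread, quality and tissue, so that run does not show how the test behaves on them.

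Samples were grouped by title; the design text says that each array is a different mouse. The number of arrays limits the precision. Replicate numbers are not shared across groups, so nothing pairs the arrays. The members, the lists and the comparisons were chosen with earlier results of these data known. Related genes named are up to 3 per list and comparison with the smallest p among those at an unadjusted p of 0.05, and likeness names the 2 genes with the highest r. Alternatives were other normalizations, an offset of 16, no filter, array weights, the Gapdh difference as a covariate, only the groups compared, the mean of a gene's probe sets, single arrays or sets of arrays left out, and, added after the data were seen, the probe set with the second highest mean.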

Additional observations from a re-analysis of the deposited data

Results flagged for a closer look

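In a search of 40 groups of values for a single array far from the others, where chance gives about 1 in 20 at Dixon's 95% limit, 1 was found. Agrn stood at 10.32 on CR715, below the other control rosiglitazone arrays at 11.13 to 11.40 (gap over range 0.750). CR715 is also among the 5 arrays low in sensory neuron transcripts and has the lowest Schwann cell and myelin level, -1.05, and the highest adipocyte level, 2.99; their part in the Agrn value was not tested.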

How the results depend on the processing

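No member passed the adjusted threshold in any of the 200 combinations of comparison and setting. Of 735 alternative values of the 25 differences in the text, 27 changed sign, 7 of them on leaving out 1 array; over all 70 differences of the members, 163 of 2042 did. The causes were not tested. For diabetic minus control on vehicle, Lama4 (0.09) became -0.01 with array weights, -0.02 with the Gapdh covariate, -0.45 with the mean of probe sets, -0.98 on the second probe set, -0.02 without DV706 and DV707, -0.27 without the 5 arrays with few sensory neuron transcripts, and -0.01 to 0.19 on leaving out 1 array. Lamb2 (-0.18) became 0.02 with the Gapdh covariate and 0.07 without DV706 and DV707. Nid1 (-0.02) became 0.07 on median-centred arrays and ranged from -0.07 to 0.04 on leaving out 1 array. Without the 5 arrays, Lama5 became -0.16 in that comparison, 0.21 for rosiglitazone in diabetic mice, 0.11 for the interaction and -0.10 for diabetes averaged over treatments; array weights gave -0.01 for rosiglitazone in control mice. Lamc1 for rosiglitazone in diabetic mice (0.11) became -0.09 with the Gapdh covariate and -0.12 without DV706 and DV707, and its average over states 0.01 on the second probe set. Lamb2 for rosiglitazone averaged over states (0.05) became -0.08 with array weights, -0.06 with the Gapdh covariate and -0.08 without DV706 and DV707, and ranged from 0.00 to 0.14 on leaving out 1 array. Nid2 between diabetic and control mice on rosiglitazone ranged from 0.00 to 0.14.

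Members at an unadjusted p of 0.05 under vehicle (2 in the report) numbered 1 with quantile normalization, median-centred arrays or only the groups compared, 0 with the Gapdh covariate or without DV706 and DV707, 5 with the mean of probe sets, 4 without the 5 arrays and 1 to 3 on leaving out 1 array. The share of all genes at that p moved too. It was 18.6% with quantile normalization, 18.4% on median-centred arrays, 12.4% with only the groups compared and 5.68% with the Gapdh covariate. Without DV706 and DV707 it was 4.49%, with the mean of probe sets 19.3% and without the 5 arrays 11.5%. Leaving out 1 array gave 9.07% to 29.2%. For diabetes averaged over treatments (2) members at that p numbered 0 on median-centred arrays or with the Gapdh covariate, 5 with the mean of probe sets and 1 to 2 on leaving out 1 array. The shares of all genes were 9.44%, 6.08%, 11.4% and 6.71% to 18.4%, in that order. For rosiglitazone in control mice (1) members at that p numbered 3 with array weights, 0 with the mean of probe sets, 2 without the 5 arrays and 0 to 1 on leaving out 1 array. Here the shares of all genes were 15.4%, 3.03%, 8.93% and 1.52% to 3.79%, in that order. In the comparisons with 0, members at that p numbered 1 for rosiglitazone in diabetic mice with the mean of probe sets, beside 8.58% of all genes. On leaving out 1 array they numbered 0 to 1, beside 3.31% to 22.3%. For diabetes under rosiglitazone they numbered 1 with array weights, beside 7.42% of all genes, and 1 without the 5 arrays, beside 5.65%. The interaction gave 1 with quantile normalization, array weights or without the 5 arrays, 2 with the mean of probe sets and 0 to 1 on leaving out 1 array. For it the shares of all genes were 4.97%, 9.58%, 7.02%, 5.59% and 2.45% to 13.7%, in that order. Rosiglitazone averaged over states gave 1 with the Gapdh covariate, beside 4.77% of all genes, and 1 without DV706 and DV707, beside 3.90%. On the second probe set, which 6 members have, 5 of 6 were at an unadjusted p of 0.05 under vehicle (median -0.73), 4 for diabetes averaged over treatments, 2 for the interaction, 1 for rosiglitazone in diabetic mice and 1 for rosiglitazone averaged over states, and 0 in the other comparisons. Of all probe sets above the filter, 20.7% were at that p under vehicle and 10.3% for rosiglitazone in diabetic mice. The other comparisons were not counted over all probe sets. On their brightest probe sets, 10.3% of all genes were at that p for diabetes averaged over treatments, 4.77% for the interaction and 5.24% for rosiglitazone averaged over states. No paired analysis was possible because no replicate number is shared between groups.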
